A study of Mus musculus with 19 samples.

Results

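The 10 genes described here belong to fat cell formation and fatty acid uptake and were followed in all 19 RNA sequencing libraries of the series. They are 10 of 46078 rows of the deposited table, chosen by name: the transcription factors Pparg, Cebpa, Cebpb and Ebf2, the fatty acid carriers Fabp4 and Cd36, the lipase Lpl with its capillary anchor Gpihbp1, and the acyltransferases Dgat1 and Dgat2. All 10 passed the filter on low counts in every comparison, so that no member was lost. Mouse tissue of 5 groups was sampled. MG-WT were 3 mammary glands of wild-type mice. MG-N were 4 glands without malignant lesions from tumor-bearing N mice, of which replicate 1 carried MMTV-neu and Fsp-Cre, and replicates 2, 3 and 4 carried MMTV-neu and a single p53wm-R172H allele without Cre. MG-NP were 4 such glands from NP mice, which carried MMTV-neu, p53wm-R172H/+ and Fsp-Cre together. T-N were 4 mammary tumors of MMTV-neu;Fsp-Cre mice, and T-NP were 4 mammary tumors of MMTV-neu;p53wm-R172H/+;Fsp-Cre mice. All mice but the MG-WT group thus carried the MMTV-neu transgene, which drives ERBB2 in mammary epithelium. The wm-R172H allele makes wild-type p53 until Cre converts it, and Fsp-Cre is active in fibroblasts, so that adipocytes were not the intended target of the mutation. By the study's text the N and NP mice were females of a mixed FVB/C57/BALB/c background. The study gives neither sex nor strain for the MG-WT mice, so whether strain differed in comparisons with MG-WT is not known. The MG-WT mice were matched in age to the others, and no ages are given in the labels. T-NP replicates 1 and 2 share an animal or tumor number in their names.

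The mammary gland is an epithelial tree set in a pad of white fat. Fat cells form when C/EBPβ, an early and transient factor, gives way to PPARγ and C/EBPα, which keep each other expressed and switch on genes of lipid uptake and storage. EBF2 acts in fat precursors and favours the brown and beige programme. Lipoprotein lipase, made by fat cells and by the milk-secreting epithelium, is carried by GPIHBP1 to the surface of capillary endothelium, where it frees fatty acids from circulating triglyceride. CD36 brings these fatty acids into cells, FABP4 carries them in the cytosol, and the enzymes DGAT1 and DGAT2 perform the last step of triglyceride synthesis.

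Recovered reads numbered 54677315 to 62645459 per MG-WT library and 20899152 to 27262440 per library of the remaining 16. Trp53 had a normalized count of 482.9 to 1135.1 in MG-NP, 635.6 to 763.5 in MG-N, 567.3 to 896.5 in T-NP, 707.8 to 1554.1 in T-N and 1243.2 to 2296.9 in MG-WT, with both alleles counted together, so it does not check the mutation. Erbb2 was at 73426.0 to 155041.5 in the 8 tumors and 1844.6 to 14717.6 in the 8 glands of N and NP mice. Fat was almost missing from the libraries labelled MG-WT: Adipoq, the adiponectin gene, was at 1.71 to 23.4 normalized counts there, against 36543.0 to 47028.7 in MG-N and 14467.8 to 38749.3 in MG-NP. The mean log2 value of 9 white adipocyte markers was 5.22 to 6.42 in MG-WT, 14.52 to 14.77 in MG-N, 13.26 to 14.54 in MG-NP, 3.28 to 9.03 in T-N and 6.46 to 7.82 in T-NP. In bulk tissue, fewer fat cells and less RNA per fat cell cannot be told apart. A second tissue differed within MG-NP, where 20 skeletal muscle genes took 0.0661% to 9.82% of reads, against 0.00606% to 0.0837% in MG-N. MG-NP replicate 4 also held brown fat transcripts, with Ucp1 at 56925.7 normalized counts against at most 1139.1 in any T-N tumor and 812.6 in any MG-N gland. The summed count of 8 brown fat markers was 88767.9 there, 5642.5, 4836.0 and 2177.1 in MG-NP replicates 1 to 3, and 1522.1 to 3582.4 in MG-N. Their mean log2 value was 12.38 there, 8.59, 6.03 and 7.30 in MG-NP replicates 1 to 3, and 6.85 to 8.34 in MG-N. By this mean, MG-NP replicate 2 lay below all MG-N glands, though its sum lay above theirs.

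Across the 19 samples the members followed 2 opposite patterns. A set of 9 was highest in MG-N, next highest in MG-NP, and far lower in MG-WT and in both kinds of tumor. Cebpb, the early factor, had the reverse order, with its highest mean in MG-WT and its lowest in MG-N. For 8 of the 10 genes no tumor overlapped any of the 8 N and NP glands, against 30.3% of 19739 genes. The exceptions were Ebf2, with up to 679.6 normalized counts in a tumor and as few as 602.2 in a gland, and Cd36, with up to 25895.8 in a tumor and as few as 24028.0 in a gland. The ranges of MG-N and MG-NP, neighbours in the order of every gene, overlapped for all 10. Beneath them the ranges of MG-WT, T-N and T-NP overlapped from 1 neighbour to the next for Pparg, Fabp4, Cd36, Lpl and Dgat2. MG-WT lay below all tumors for Gpihbp1 and Dgat1 and above all T-NP tumors for Ebf2, and T-NP lay above T-N for Cebpa.

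**Figure D1:**
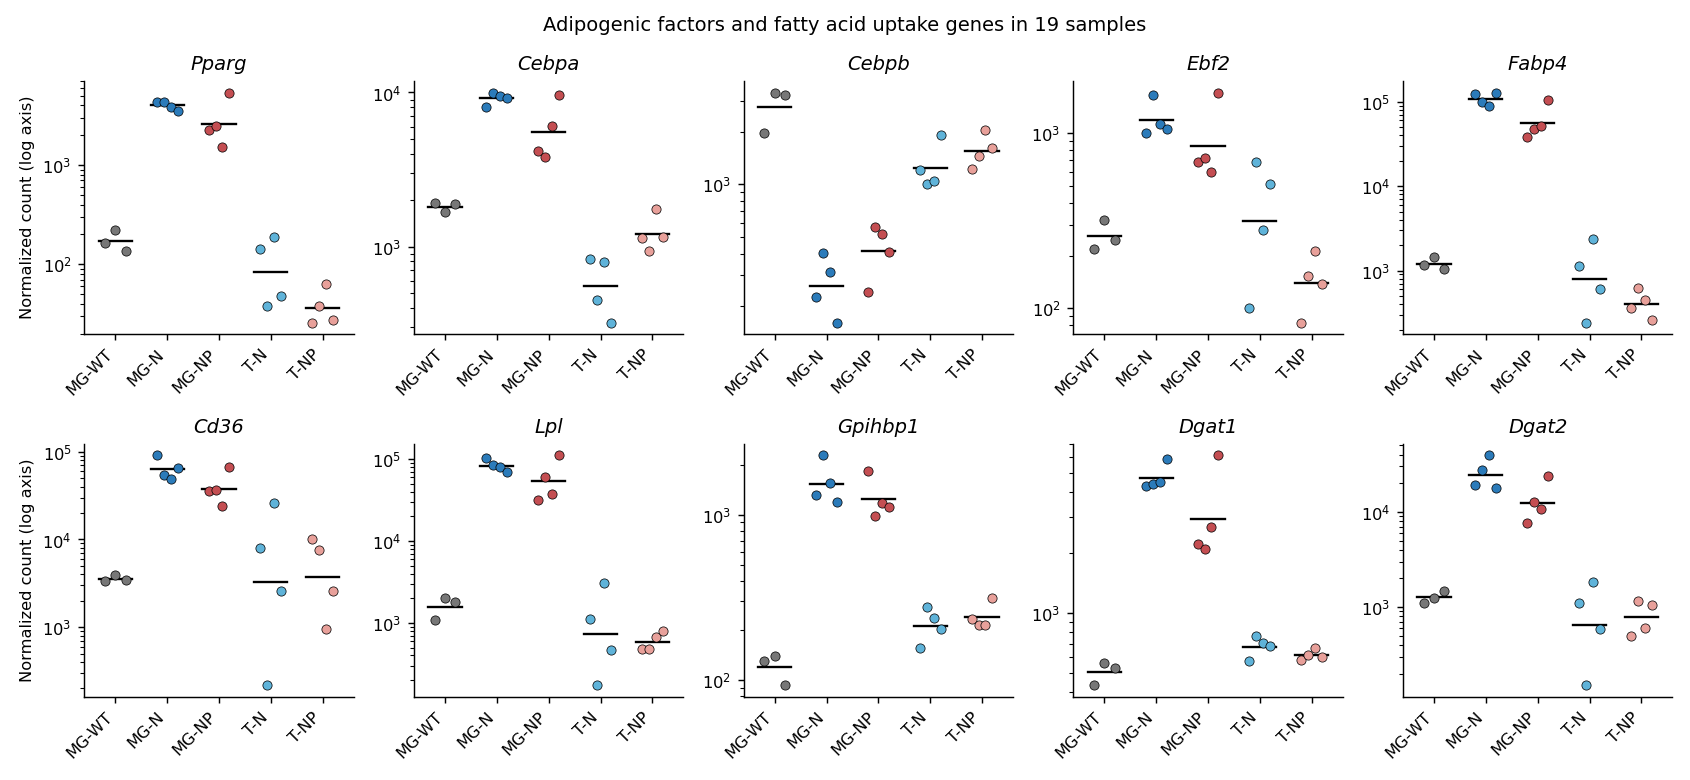
Normalized counts of the 10 genes on log axes in each of 19 samples, by group; points are samples in order of replicate and bars are geometric means (n = 3 for MG-WT, 4 for the others). All genes but Cebpb are highest in MG-N and MG-NP, whereas Cebpb is lowest there, and Cd36 runs from 217.0 to 25895.8 within T-N.

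Promoter sequences of 4 members, Pparg, Cebpa, Cebpb and Cd36, were found in RefSeq for GRCm38.p6, with 6 start sites in all. A choice of 3 is printed, because Cebpa and Cebpb moved in opposite directions and because C/EBP proteins are known to act upstream of Pparg. Each run is the 250 bases before the start site. Capitals mark the C/EBP letters TTGCNNAA in Pparg and the cyclic AMP response half-site TGACG in Cebpb, both searched on both strands, and no capitals occur in Cebpa. Promoters of Ebf2, Fabp4, Lpl, Gpihbp1, Dgat1 and Dgat2 were not analysed here.
Cebpa, chr7:35119043-35119292, plus strand: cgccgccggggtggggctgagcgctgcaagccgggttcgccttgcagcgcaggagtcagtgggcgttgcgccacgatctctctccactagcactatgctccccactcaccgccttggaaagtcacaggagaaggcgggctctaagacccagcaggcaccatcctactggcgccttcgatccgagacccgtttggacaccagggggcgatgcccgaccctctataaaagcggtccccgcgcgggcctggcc
Cebpb, chr2:167688665-167688914, plus strand: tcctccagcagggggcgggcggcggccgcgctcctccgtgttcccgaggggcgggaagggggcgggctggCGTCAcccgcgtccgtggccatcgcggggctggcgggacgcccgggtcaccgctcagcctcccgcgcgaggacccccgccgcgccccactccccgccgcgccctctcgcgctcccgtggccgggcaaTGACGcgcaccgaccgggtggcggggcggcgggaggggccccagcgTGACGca
Pparg, start 3 of 3, chr6:115421816-115422065, plus strand: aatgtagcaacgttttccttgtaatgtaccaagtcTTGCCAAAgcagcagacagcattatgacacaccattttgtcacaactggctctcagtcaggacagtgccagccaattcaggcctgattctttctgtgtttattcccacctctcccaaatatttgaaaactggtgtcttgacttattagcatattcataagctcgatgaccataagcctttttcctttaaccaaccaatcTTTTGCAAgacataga

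In these windows TTGCNNAA was found 2 times before the third Pparg start and not before the other start sites of the 4 genes, whereas 9.57% of 32526 promoter windows of this length held it. TGACG was found 3 times before Cebpb, at 180, 53 and 7 bases from the start by its first base, and not before the others; 17.9% of windows held it. Cebpa had 1 TATAAA, 30 bases before its start, a run found in 12.3% of windows. A match on the minus strand lay 29 bases before the second Pparg start. The receptor half-site AGGTCA, in 14.0% of windows, occurred before the first and second Pparg starts and before Cd36. CACGTG, in 6.04% of windows, occurred before none of the 6. The base composition of the windows differed as well, with 81.6% G and C before Cebpb, 66.4% before Cebpa and 40.8% before the third Pparg start. These letter matches describe the windows and do not show binding.

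To learn how glands of tumor-bearing mice differed from wild-type glands, MG-N and MG-NP were each compared with MG-WT. Both comparisons share the 3 MG-WT glands. Expression was tested as log2(normalized count + 1) with limma over all genes that passed the filter, and a gene was called at a Benjamini-Hochberg adjusted p under 0.05 and a change of at least 2-fold. In MG-N, 9 of 10 members were called higher and Cebpb lower, where 37.0% of all tested genes were called (19.1% higher and 17.9% lower). In MG-NP the counts were again 9 higher and 1 lower, with 32.6% of all genes called (16.4% higher and 16.2% lower). None of the 10 overlapped between groups in either comparison, but neither did 61.3% and 54.4% of all genes. The median difference of the members was 3.91 in MG-N and 3.33 in MG-NP on the log2 scale, beside 0.02 over all tested genes in each.

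Pparg, the nuclear receptor that directs fat cell formation, had normalized counts of 162.1, 222.6 and 137.4 in MG-WT replicates 1 to 3. In MG-N replicates 1 to 4 it was at 4372.6, 4307.6, 3887.9 and 3492.3, and in MG-NP at 2282.4, 2453.7, 1505.5 and 5386.0. Every gland of tumor-bearing mice was thus above every wild-type gland, and MG-NP replicate 4 was the highest of all 19 samples. The log2 difference from MG-WT was 4.54 ± 0.17 (SE; adjusted p = 1.20e-06, limma) in MG-N and 3.92 ± 0.41 (adjusted p = 0.000523, limma) in MG-NP. Cebpa, the partner factor that holds the mature fat cell state, was at 1911.4, 1664.4 and 1883.4 in MG-WT. Its values were 8038.3, 9987.4, 9472.9 and 9169.0 in MG-N, whereas MG-NP had 4153.7, 3808.3, 6049.2 and 9604.7, again with no overlap with MG-WT. The log2 difference from MG-WT was 2.33 ± 0.11 (SE; adjusted p = 2.90e-06, limma) in MG-N and 1.60 ± 0.31 (adjusted p = 0.00566, limma) in MG-NP.

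Cebpb encodes C/EBPβ, which starts the cascade and also serves in inflammation and in mammary epithelium. Normalized counts were 1971.1, 3350.3 and 3237.7 in MG-WT and 226.7, 402.3, 313.7 and 160.7 in MG-N, against 240.4, 571.0, 517.7 and 406.8 across MG-NP. All 8 glands of tumor-bearing mice lay below all 3 wild-type glands. The log2 difference was -3.41 ± 0.32 (SE; adjusted p = 7.10e-05, limma) in MG-N, which is 10.6-fold lower, and -2.75 ± 0.34 (adjusted p = 0.000906, limma) in MG-NP. Its relative Cebpd, which acts beside it early in fat cell formation, had 2680.8 to 4276.8 normalized counts in MG-WT, 220.3 to 606.8 in MG-N and 176.9 to 735.1 in MG-NP. Ebf2, a factor of fat precursors, had 219.2, 317.3 and 247.0 in MG-WT and 1001.1, 1653.8, 1127.9 and 1048.4 in MG-N, while the MG-NP glands had 681.0, 718.0, 602.2 and 1700.6. These groups did not overlap, and the log2 difference was 2.19 ± 0.21 in MG-N and 1.70 ± 0.37 in MG-NP (adjusted p = 7.07e-05 and 0.00848, limma).

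Beside the fall of Cebpb stood other differences of the wild-type glands. The summed normalized count of 9 luminal epithelial markers was 83924.4 to 99385.6 in MG-WT and 9444.6 to 29057.2 in MG-N and MG-NP, and all 9 were called lower in MG-N. All 8 basal markers were called lower as well. Egr2, an early factor of fat cell formation and an immediate-early gene, was at 4088.7 to 4518.9 in MG-WT, 133.7 to 633.9 in MG-N and 69.9 to 175.5 in MG-NP. The part of these markers in the Cebpb difference was not tested.

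**Figure D2:**
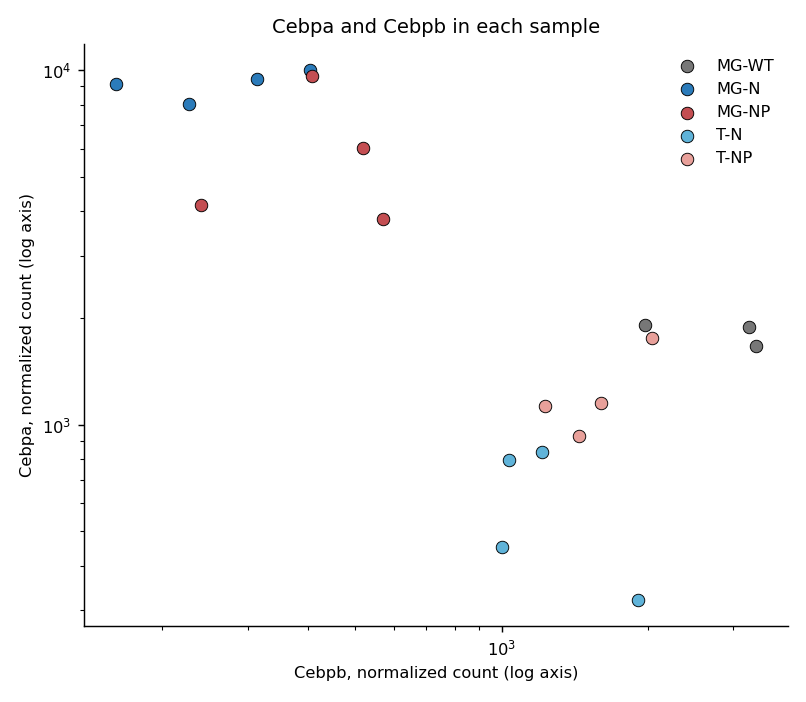
Cebpa against Cebpb in normalized counts on log axes, 1 point per sample, coloured by group. The 8 glands of N and NP mice lie at the upper left, with Cebpa at 3808.3 to 9987.4 and Cebpb at 160.7 to 571.0, and the wild-type glands and tumors at the lower right.

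Among the carriers, Fabp4 had the largest rise of the 10. It was at 1174.1, 1428.7 and 1046.8 normalized counts in MG-WT and 122858.3, 100170.8, 88147.5 and 128649.3 in MG-N, whereas MG-NP had 38343.8, 48061.8, 52251.0 and 105931.8. This was 90.0-fold in MG-N (log2 difference 6.49 ± 0.18 SE; adjusted p = 3.67e-07, limma) and 46.8-fold in MG-NP (5.55 ± 0.34; adjusted p = 7.48e-05, limma). Cd36 started from a higher level, with 3326.9, 3965.3 and 3461.9 in MG-WT. The MG-N values of 91294.8, 54256.2, 48546.8 and 64592.9, like the MG-NP values of 35333.6, 36457.0, 24028.0 and 67263.8, all lay above them. The log2 difference was 4.13 ± 0.22 in MG-N and 3.41 ± 0.32 in MG-NP (adjusted p = 3.90e-06 and 0.000341, limma). CD36 is also made by capillary endothelium and macrophages. In MG-N 5 of 12 capillary endothelial and 9 of 10 macrophage markers were called higher, in MG-NP 3 of 12 and 8 of 10, beside 19.1% and 16.4% of all genes, and their part in the Cd36 difference was not tested.

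Lpl was at 1076.8, 2011.0 and 1801.2 in MG-WT and 103323.6, 84133.5, 79660.7 and 70051.3 in MG-N, while the MG-NP glands had 31978.2, 61043.9, 37609.3 and 111537.4. The rise was 52.98-fold in MG-N (log2 difference 5.73 ± 0.23 SE) and 34.0-fold in MG-NP (5.09 ± 0.45), with adjusted p = 1.46e-06 and 0.000274 by limma. Gpihbp1, its anchor on capillaries, rose less: the values were 131.4, 139.1 and 93.0 in MG-WT and 1317.0, 2297.5, 1569.3 and 1189.5 in MG-N, whereas MG-NP had 1843.7, 979.2, 1179.5 and 1117.0. That is 12.8-fold and 10.3-fold (log2 difference 3.68 ± 0.25 and 3.37 ± 0.26; adjusted p = 1.32e-05 and 0.000178, limma). MG-NP replicate 4 was the highest of its group for 8 of the 10 genes, but not for Gpihbp1 or Cebpb. The mean log2 value of the 12 endothelial markers was 9.91 to 10.43 in MG-WT, 10.83 to 11.66 in MG-N and 10.56 to 11.17 in MG-NP. Per kilobase of merged exon, the ratio of Lpl to Gpihbp1 was 2.00 to 4.72 in MG-WT, 8.93 to 19.1 in MG-N and 4.23 to 24.3 in MG-NP. The MG-NP range thus overlapped that of MG-WT.

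Dgat1 had normalized counts of 432.9, 559.4 and 531.2 in MG-WT and 4322.9, 4415.6, 4506.8 and 5876.5 in MG-N, against 2198.5, 2088.3, 2678.6 and 6141.4 across MG-NP. Dgat2, which is not related to it in sequence, had 1112.2, 1255.4 and 1483.5 in MG-WT and 19123.3, 27740.7, 39388.5 and 17638.7 in MG-N, while the MG-NP glands had 7592.1, 12559.6, 10770.6 and 23781.9. Both enzymes were higher in every N and NP gland than in any wild-type gland. For Dgat1 the log2 difference was 3.23 ± 0.15 and 2.54 ± 0.37 (adjusted p = 2.23e-06 and 0.00184, limma). For Dgat2 it was 4.27 ± 0.27 and 3.29 ± 0.36 (adjusted p = 1.05e-05 and 0.000593, limma).

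For each of the 10 genes the exact two-sided permutation p was 0.0286 in both comparisons, the smallest that 4 samples against 3 can give. With the skeletal muscle score as a covariate, only 4 members, Fabp4, Cd36, Lpl and Gpihbp1, were still called higher in MG-NP and none lower. Under that covariate Pparg was at 2.32 (adjusted p = 0.0774), Cebpb at -2.64 (adjusted p = 0.0721) and Ebf2 at 0.64 (adjusted p = 0.603, limma), all with the sign they had before. Cebpa was at 1.69, Dgat1 at 2.1 and Dgat2 at 2.47 (adjusted p = 0.168, 0.147 and 0.0799, limma). The difference of Cebpa was no smaller than without the covariate, and those of Pparg, Cebpb, Ebf2, Dgat1 and Dgat2 were smaller. The muscle score was 3.51 to 3.65 in MG-WT and 8.53 to 16.4 in MG-NP, without overlap, so this fit cannot separate the score from the group.

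To describe the tumors against the glands, T-N was compared with MG-N and T-NP with MG-NP. All T-N mice carried Fsp-Cre, whereas all but a single MG-N mouse carried the p53wm-R172H allele without Cre. T-N and MG-N thus mostly differed in genotype as well as in tissue. In T-N, 9 members were called lower and Cebpb higher, where 35.1% of all genes were called (12.8% higher and 22.3% lower). In T-NP, 9 were likewise lower and Cebpb higher, where 38.7% of all genes were called (14.7% higher and 24.0% lower). No member overlapped between the groups in either comparison, as was the case for 49.2% and 52.6% of all genes. The exact permutation p was 0.0286 for each gene, the smallest that 4 against 4 allows. The median difference of the members was -4.14 in T-N and -2.97 in T-NP, beside -0.05 and -0.07 over all genes. These are the same glands that stood above MG-WT, so the 2 sets of comparisons are not independent.

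**Figure D3:**
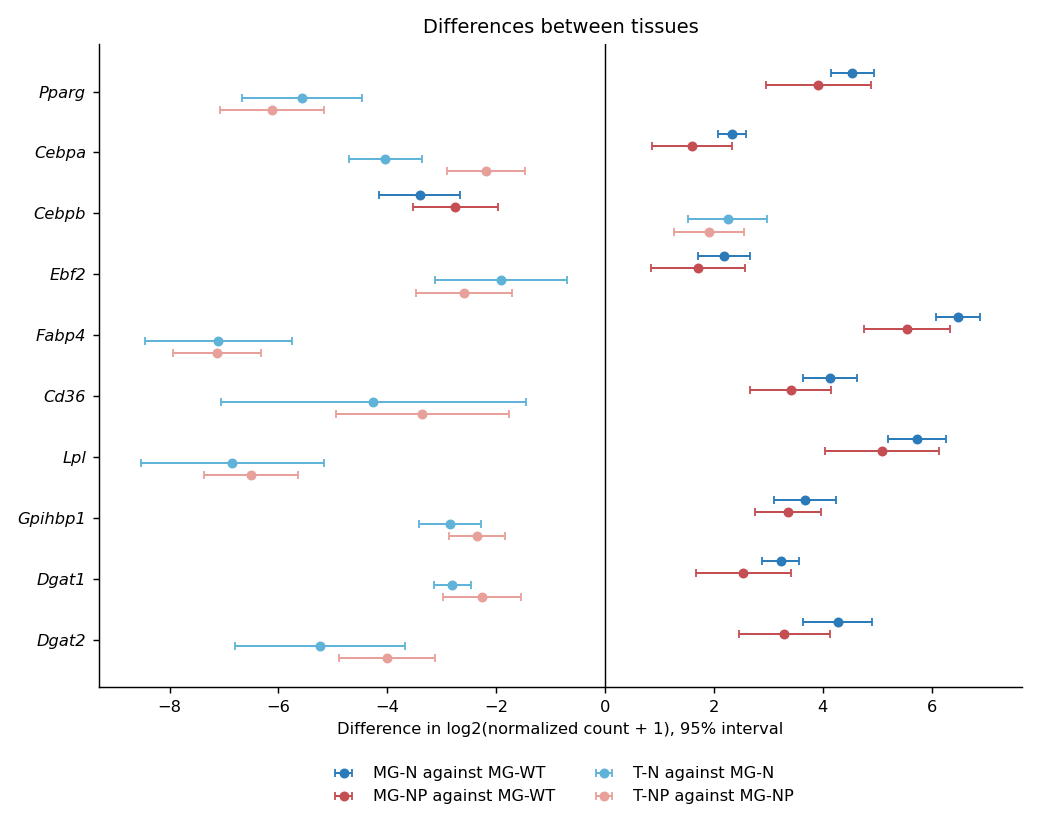
Difference in log2(normalized count + 1) with its 95% interval for each gene in 4 comparisons, glands of N and NP mice against wild-type glands, T-N against MG-N and T-NP against MG-NP. All but Cebpb lie right of 0 for the glands and left of 0 for the tumors, and Cebpb lies on the other side in each.

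Pparg was nearly lost from the tumors. T-N replicates 1 to 4 had 140.9, 37.9, 188.8 and 47.9 normalized counts, and T-NP replicates had 25.8, 37.8, 63.6 and 27.5. The fall was 47.3-fold in T-N (log2 difference -5.56 ± 0.48 SE; adjusted p = 9.36e-05, limma) and 69.8-fold in T-NP (-6.13 ± 0.42; adjusted p = 1.90e-05, limma). Cebpa fell less and was at 836.2, 452.0, 792.7 and 320.9 in T-N and 1130.1, 929.6, 1760.0 and 1153.7 in T-NP. Its log2 difference was -4.03 ± 0.30 in T-N and -2.19 ± 0.31 in T-NP (adjusted p = 5.43e-05 and 0.000549, limma). Per kilobase of exon, Cebpa exceeded Pparg by 2.06 to 2.94 times in MG-N, 4.70 to 13.3 times in T-N and 27.5 to 49.1 times in T-NP. The ratio was 1.74 to 4.5 in MG-NP, and 8.38 to 15.4 in MG-WT, which overlaps T-N.

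Cebpb was at 1210.0, 1002.0, 1036.1 and 1912.9 in T-N and at 1228.8, 1441.9, 2039.2 and 1600.6 in T-NP. Every tumor stood above every N and NP gland, by 4.77-fold in T-N (log2 difference 2.25 ± 0.32 SE; adjusted p = 0.000688, limma) and 3.75-fold in T-NP (1.91 ± 0.28; adjusted p = 0.000662, limma). Of 9 luminal epithelial markers 8 were called higher and 1 lower in each comparison, the exception being Krt19, named after its values were seen, at 33.7 to 215.1 in T-N and 2833.0 to 3515.0 in MG-N. The 9 had a summed normalized count of 104539.5 to 187980.8 in T-N and 110445.6 to 148193.1 in T-NP. The basal markers went the other way, with 8 of 8 called lower in T-N and 7 of 8 in T-NP, beside 22.3% and 24.0% of all genes. They summed to 1631.0 to 5734.0 in T-N and 2684.1 to 4418.7 in T-NP. In the glands they summed to 12337.9 to 26129.1 in MG-N and 10965.7 to 22908.1 in MG-NP. The part of either list was not tested. Ebf2 was at 99.98, 679.6, 279.7 and 513.5 in T-N and 83.0, 153.7, 211.7 and 137.3 in T-NP. It fell by 1.91 ± 0.53 on the log2 scale in T-N (adjusted p = 0.0165, limma) and by 2.59 ± 0.39 in T-NP (adjusted p = 0.000696, limma). The Ebf2 call was lost in T-N without the filter on low counts (adjusted p = 0.078, limma) and in T-NP with the skeletal muscle score as a covariate (-1.60, adjusted p = 0.0671, limma). T-N replicate 2, the tumor with most Ebf2, had the lowest white adipocyte score of the 19 samples, 3.28.

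Fabp4 fell further than any other member. Its normalized counts were 1129.3, 241.3, 2361.0 and 599.9 in T-N and 364.4, 618.5, 450.7 and 258.5 in T-NP. That is 138-fold lower than in MG-N (log2 difference -7.10 ± 0.60 SE; adjusted p = 8.35e-05, limma) and 140.0-fold lower than in MG-NP (-7.13 ± 0.35; adjusted p = 6.50e-06, limma). Lpl was close to it, at 1120.2, 172.8, 3030.6 and 465.7 in T-N and 478.7, 479.4, 671.5 and 790.3 in T-NP. The log2 difference was -6.85 ± 0.74 and -6.50 ± 0.38 (adjusted p = 0.000219 and 9.29e-06, limma). In all 8 tumors both genes were below every N and NP gland.

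Cd36 was the member that varied most among tumors. T-N replicates had 7922.3, 217.0, 25895.8 and 2599.1 normalized counts, and T-NP replicates had 10182.4, 7503.5, 952.1 and 2605.7. The highest and lowest of the 8 tumors differed 119-fold, against 9.79-fold for Fabp4, 17.5-fold for Lpl and 1.34-fold for Dgat1. Against the glands the log2 difference was -4.26 ± 1.23 in T-N (adjusted p = 0.0189, limma) and -3.36 ± 0.70 in T-NP (adjusted p = 0.00386, limma), with the widest intervals of the 10 genes (-7.06 to -1.46 and -4.95 to -1.76). In T-N it was not called by edgeR's quasi-likelihood test on the recovered reads (-2.80, adjusted p = 0.0615) or by limma without the filter on low counts (adjusted p = 0.0908). In T-NP it was not called with the skeletal muscle score as a covariate, though at -3.79 (adjusted p = 0.0568, limma) the difference was no smaller. The same T-N replicate 3 was highest, and the same T-N replicate 2 lowest, for Cd36, Fabp4, Lpl and Dgat2.

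Milk-secreting epithelium also makes CD36, and milk genes varied widely among the tumors. The mean log2 value of 8 milk secretory genes was 14.89, 7.36, 14.78 and 9.56 in T-N replicates 1 to 4 and 14.68, 14.02, 12.98 and 13.16 in T-NP. T-N replicate 2, with least Cd36, had the lowest of these scores, and T-N replicate 3, with most Cd36, had 14.78, but the highest score was that of T-N replicate 1, which had 7922.3 of Cd36. The white adipocyte score of the same tumors was 8.10, 3.28, 9.03 and 7.05 in T-N and 6.89, 7.82, 7.42 and 6.46 in T-NP, with T-N replicates 2 and 3 the lowest and highest of all 8. The ratio of Cd36 to Fabp4 per kilobase of merged exon was 3.47 to 4.14 in MG-WT, 0.628 to 0.929 in MG-N and 0.575 to 1.15 in MG-NP. It was 1.12 to 13.7 in T-N, which overlaps MG-NP, and 2.64 to 34.9 in T-NP. Merged exons overstate the length of the Fabp4 messenger RNA, so which of the genes is higher in a sample is not settled by this ratio, whereas its differences between samples do not depend on length. The part of the milk or fat markers in the spread of Cd36 was not tested.

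Gpihbp1 was at 156.8, 276.1, 236.3 and 204.2 in T-N and 234.3, 217.1, 215.6 and 312.1 in T-NP, a narrow spread with all tumors below all N and NP glands. It fell by 2.84 ± 0.25 (SE; adjusted p = 0.000105, limma) and 2.36 ± 0.22 (adjusted p = 7.38e-05, limma) on the log2 scale. All 12 capillary endothelial markers were called lower in both comparisons, and their summed normalized count was 30599.7 to 59708.5 in MG-N, 27646.7 to 43568.6 in MG-NP, 5338.8 to 9270.5 in T-N and 5860.3 to 7455.5 in T-NP. Their part in the Gpihbp1 difference was not tested. The median of the 12 was -2.36 in T-N and -2.16 in T-NP.

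Dgat1 lay within a narrow band in the tumors, at 571.5, 764.9, 703.9 and 679.2 in T-N and 581.9, 614.8, 663.7 and 596.8 in T-NP. Its log2 difference was -2.81 ± 0.15 and -2.26 ± 0.32 (adjusted p = 2.13e-05 and 0.000485, limma). Dgat2 was more variable, at 1096.4, 150.7, 1845.0 and 591.7 in T-N and 500.0, 1167.4, 604.0 and 1045.0 in T-NP. It fell by 5.24 ± 0.69 in T-N and by 4.0 ± 0.39 in T-NP (adjusted p = 0.000488 and 7.90e-05, limma). Per kilobase, Dgat2 exceeded Dgat1 in every gland, by 2.22 to 2.77 times in MG-WT, 2.98 to 8.66 times in MG-N and 3.42 to 5.96 times in MG-NP, but lay between 0.195 and 2.60 times Dgat1 in the tumors.

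In a direct comparison of tumors with wild-type glands, few members were called. In T-N, Cebpa (log2 difference -1.70 ± 0.34 SE; adjusted p = 0.0038, limma) and Cebpb (-1.16 ± 0.28; adjusted p = 0.0098, limma) were lower and none was higher, where 42.5% of all genes were called (17.4% higher and 25.0% lower). In T-NP, Pparg was lower, at -2.21 ± 0.36 (adjusted p = 0.000652, limma), as were Fabp4 (-1.58 ± 0.27; adjusted p = 0.000939, limma) and Lpl (-1.41 ± 0.26; adjusted p = 0.00132, limma), where 47.8% of all genes were called (19.8% higher and 28.0% lower). Gpihbp1 was higher in T-NP by 1.01 ± 0.22 (adjusted p = 0.00357, limma), just past the 2-fold limit, and fell short of that limit without MG-WT replicate 3 (0.83) or without T-NP replicate 4 (0.89). In T-N its difference was 0.84 (95% interval 0.18 to 1.49; adjusted p = 0.035, limma), which does not reach 2-fold. Whether the T-N and T-NP differences from MG-WT differed is the test of T-NP against T-N below. Cd36 had intervals of -3.33 to 3.09 in T-N and -1.57 to 1.68 in T-NP, so neither a rise nor a fall was shown. The Lpl call in T-NP was lost with all 5 groups in a single fit (adjusted p = 0.0689, limma), and the Cebpb call in T-N without the filter on low counts (adjusted p = 0.0503, limma). Without T-N replicate 3, Lpl was also called lower in T-N, at -1.81 (adjusted p = 0.0476, limma). Without MG-WT replicate 1, Cebpb (-1.09) and Ebf2 (-1.01) were also called lower in T-NP, as was Ebf2 without T-NP replicate 3 (-1.09). In these comparisons 60.7% and 69.9% of all genes had groups that did not overlap.

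The effect of mutant p53 in fibroblasts was addressed by comparing NP with N mice, first in the glands and then in the tumors. Most MG-N mice lacked Cre, whereas all T-N mice had Cre and lacked the p53wm-R172H allele. In the glands, none of the 10 genes was called, and 0% of the 18563 tested genes was. The groups overlapped for all 10, whereas 6.21% of all genes did not overlap. All members but Cebpb had lower means in MG-NP, between -0.31 for Gpihbp1 and -0.98 for Dgat2, and Cebpb had a higher one, 0.66 (95% interval -0.16 to 1.48). At an unadjusted p under 0.05 there were 3 members, Cebpa, Fabp4 and Dgat2, and 1950 genes in all. Fabp4, with the smallest of these p, was at -0.94 (95% interval -1.75 to -0.14; adjusted p = 0.392, limma). DESeq2 called 404 genes higher and 115 lower, edgeR none, and neither called a member. The count of 0 over all genes also depended on MG-NP replicate 3, without which 297 genes were called higher and 21 lower, again with no member.

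MG-NP replicate 4, the gland with brown fat transcripts, lay within or above the MG-N range for every member but Gpihbp1. Without it, 8 of the 10 genes, all but Cebpb and Gpihbp1, were lower in each of the other 3 MG-NP glands than in any MG-N gland, whereas 11.5% of all genes did not overlap (8.11% lower in MG-NP). The differences were then -1.25 for Fabp4, -1.04 for Dgat1, -1.0 for Cebpa and -0.97 for Pparg, with adjusted p of 0.178, 0.151, 0.165 and 0.178 by limma, and still no member was called. This gland was set apart after its values were seen. It was the highest of the MG-NP glands for the same 8 genes, so leaving it out favoured lower ranges for them. The share over all genes was not chosen in that way, so the 2 are not on an equal footing. MG-NP replicates 1 and 2 carried skeletal muscle scores of 13.57 and 16.40, replicate 3 had 8.53 and replicate 4 had 15.87, against 4.58 to 9.17 in MG-N. The white adipocyte score was 13.26, 13.84 and 14.04 in MG-NP replicates 1 to 3 and 14.52 to 14.77 in MG-N. The part of muscle and fat content in these differences was not tested.

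**Figure D4:**
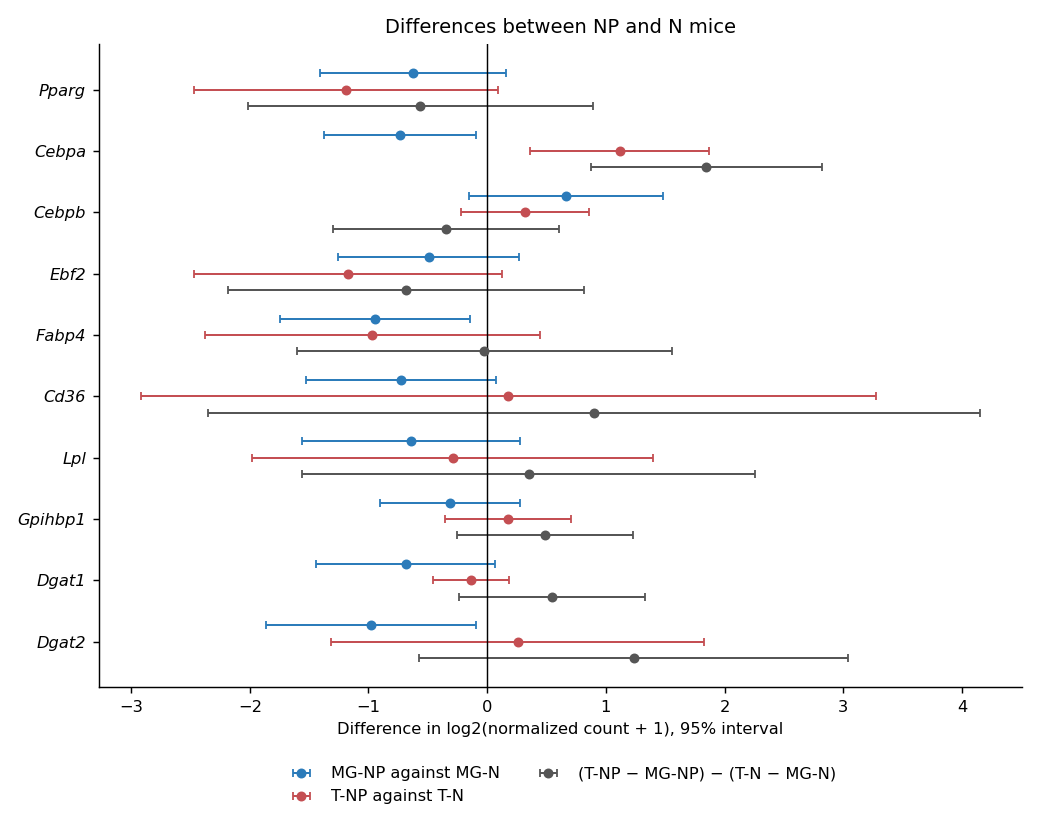
Difference in log2(normalized count + 1) with its 95% interval between NP and N mice, in glands, in tumors, and the difference of the 2 tumor-gland differences. Cebpa is the gene whose intervals exclude 0 in all 3, at -0.73, 1.12 and 1.85, before adjustment over all genes.

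In the tumors no member was called either, where 0.0421% of all genes (7 of 16638) were, 0.0361% higher and 0.00601% lower. Without T-N replicate 1 this count was 34 higher and 18 lower, and it was 0 without any other single tumor, with no member called in either case. Cebpa was the member whose groups did not overlap, with 929.6 to 1760.0 normalized counts in T-NP and 320.9 to 836.2 in T-N, as was the case for 4.21% of all genes. Its log2 difference was 1.12 (95% interval 0.36 to 1.87; unadjusted p = 0.00873, adjusted p = 0.617, limma), and the adjusted p ranged from 0.127 to 1.0 over the alternatives. It was the 1 member with an unadjusted p under 0.05 by limma, whereas edgeR gave 3 and DESeq2 gave 4, none of them called. Cebpa is also expressed in macrophages and luminal cells. The macrophage score was 10.13 to 11.27 in T-N and 10.32 to 10.86 in T-NP, and the luminal score 12.56 to 12.73 and 12.53 to 13.12, and their part was not tested. For the other 9 genes the intervals included 0, from the narrow one of Dgat1 (-0.46 to 0.18) to that of Cd36 (-2.92 to 3.27), which allows large changes either way. Cd36 changed sign when T-N replicate 2 (-1.13), T-NP replicate 1 (-0.31) or T-NP replicate 2 (-0.16) was left out.

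Whether the change from gland to tumor differed between NP and N mice was tested as an interaction. Since T-N and most MG-N mice differed in genotype, that difference cannot be told apart from the interaction. No member was called, and 0% of 19367 genes was, with 1 member and 1536 genes at an unadjusted p under 0.05. That member was Cebpa, with an interaction of 1.85 on the log2 scale, a smaller fall in NP mice (95% interval 0.87 to 2.82; adjusted p = 0.426, limma). By DESeq2 its interaction of 1.69 was called (adjusted p = 0.0319), among 50 genes higher and 277 lower, whereas edgeR gave 1.71 (adjusted p = 0.186) and called no gene. When the muscle score entered the fit, the limma value was 2.23 (adjusted p = 0.233). The comparison rests on the same 16 libraries as those above.

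Levels of the 10 genes were ranked per kilobase of merged exon, as mean normalized counts. In MG-N the order was Fabp4 (24490), Cd36 (18010), Dgat2 (8425), Lpl (8045), Cebpa (3478), Dgat1 (1564), Pparg (1360), Gpihbp1 (623.8), Cebpb (183.4) and Ebf2 (174.3). In MG-WT Cebpb led with 1897 per kilobase, ahead of Cd36 with 998.5 and Cebpa with 690.3, and Fabp4 stood at 271. In the tumors the order of Cd36 and Cebpb differed between samples. Cd36 was at 60.5 to 7213 per kilobase in T-N and 265.2 to 2836 in T-NP, whereas Cebpb was at 666.2 to 1272 and 817.0 to 1356, and it stood above Cd36 in T-N replicates 2 and 4 and in T-NP replicates 3 and 4. Merged exons cover the whole span of Fabp4, 4489 bases, so its level per kilobase is low relative to one taken over its spliced messenger RNA. Lpl had the longest merged exons of the 10, 10478 bases. Its mean normalized count in MG-N, 84292, was above that of Dgat2, 25973, so the order of these genes depends on the length used. Cebpb shares 908 bases with Tmem189 on the other strand, a gene with at most 1674.8 normalized counts, and Ebf2 overlaps 5 genes on the other strand, of which Gm6878 had up to 266.6. Whether counting used strand is not given in the sources used here.

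Relative to the white adipocyte score, the members did not keep a fixed place. The score averages log2(normalized count + 1). Adipoq, for example, was very low in MG-WT, as given above, and the whole score was low in T-N replicate 2, at 3.28. Where markers are this low, the distances depend in part on the added 1. The log2 value of Fabp4 stood 1.84 to 2.28 above the score in MG-N, 1.63 to 2.15 in MG-NP and 1.40 to 1.62 in T-NP, and 4.06 to 4.98 above it in MG-WT. Lpl was 1.35 to 2.03 above the score in MG-N and 1.09 to 3.17 in T-NP. Cebpb, in contrast, was at -7.41 to -6.12 from the score in MG-N and 5.29 to 5.73 above it in MG-WT. The median distance of Fabp4 was 2.06 in MG-N and 2.18 in T-N, and 1.84 in MG-NP and 1.51 in T-NP. For Lpl it was 1.67 and 2.28 in N mice and 1.88 and 1.99 in NP mice, and for Pparg -2.65 and -1.19, and -2.36 and -1.89. Larger shifts were those of the other members. Cebpb went from -6.51 to 3.0 in N mice and from -5.18 to 3.47 in NP mice, and Ebf2 from -4.52 to 0.53 and from -4.1 to -0.09. Cd36 went from 1.14 to 4.67 and from 1.41 to 4.97, and Dgat2 from -0.21 to 2.08 and from -0.29 to 2.22. Cebpa went from -1.54 to 1.45 in N mice and from -1.4 to 3.31 in NP mice. Gpihbp1 went from -4.09 to -0.08 and from -3.87 to 0.66, and Dgat1 from -2.47 to 1.71 and from -2.4 to 2.13. The T-N tumors were more spread out, with Fabp4 at 2.04 to 4.64, while the white adipocyte score itself ran from 3.28 to 9.03 there.

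**Figure D5:**
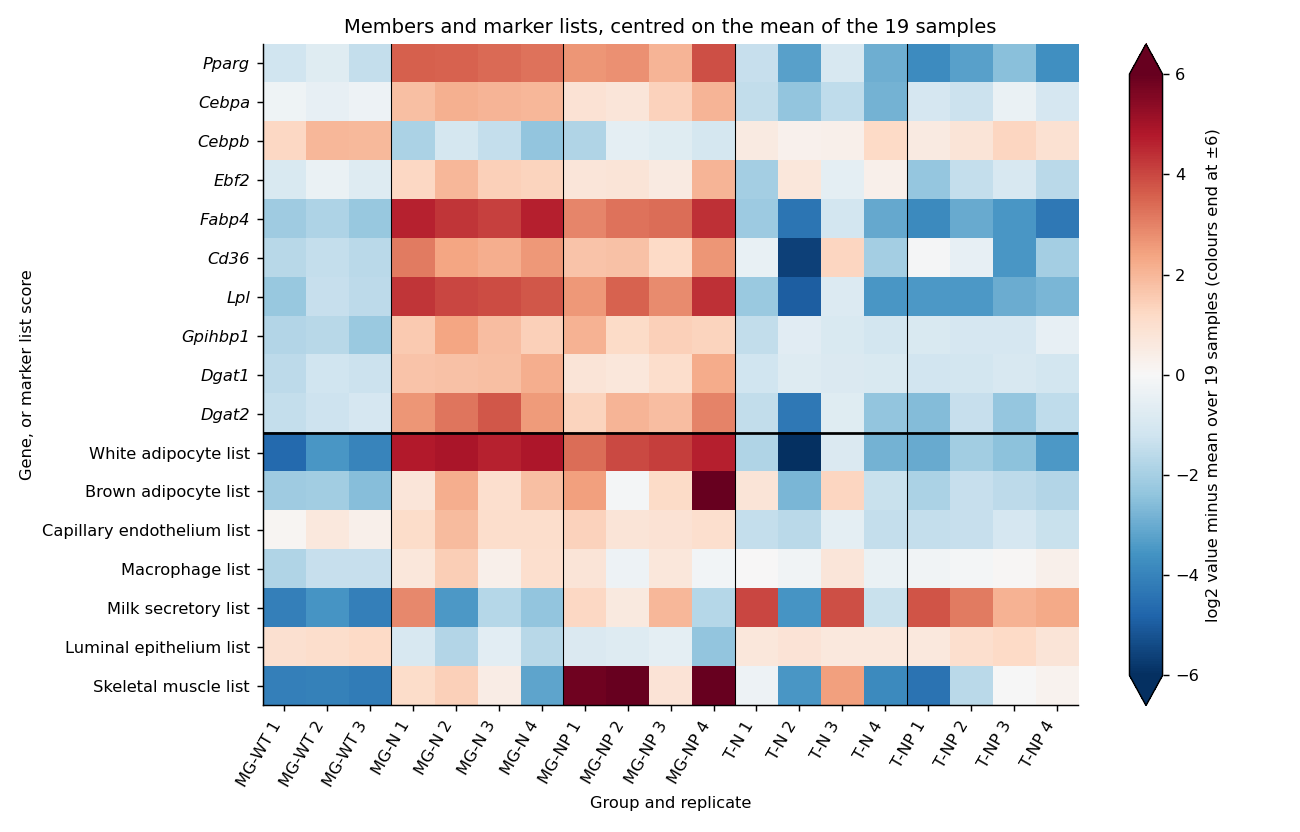
Log2(normalized count + 1) of the 10 genes, and mean log2 scores of 7 marker lists, in each of 19 samples, centred on the mean over samples; red is higher and blue lower, with colours ending at ±6. All members but Cebpb are high, with the white adipocyte list, in the N and NP glands, Cebpb runs opposite, and MG-NP replicates 1, 2 and 4 stand out for skeletal muscle.

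The genes whose pattern over the 19 samples was most like each member were found among 14832 genes as the smallest root mean square difference of centred log2 values, leaving out the 10 members themselves. Fabp4 and Lpl were the only members that would rank among each other's neighbours, with a difference of 0.555, below that of the second neighbour printed for either. Gpihbp1 and Dgat1 differed by less, 0.539, but this was above all neighbours printed for either. For Pparg they were Trarg1 (0.448), Aqp7 (0.466) and Nnmt (0.589), and for Fabp4 Nat8l (0.410), Hcar1 (0.610) and Trarg1 (0.624). For Lpl they were Amy1 (0.553), Slc36a2 (0.584) and Nat8l (0.599), and for Dgat2 Dhdh (0.492), Hspa12a (0.588) and Irs3 (0.596). Cebpa was nearest to Slc27a1 (0.496), Cmklr1 (0.504) and Sh3tc1 (0.535), whereas Cebpb was nearest to Irf2bpl (0.352), Tnk1 (0.444) and Mex3d (0.457). Dgat1 had the closest neighbours of all, Tmem120a (0.259), Aifm2 (0.286) and Prkar2b (0.392). Tmem120a was also near Gpihbp1 (0.451), between Cd209c (0.399) and Ghr (0.517). The neighbours of Ebf2 were Gstm2 (0.494), Gpd2 (0.553) and Rnf144a (0.555). Cd36 had no close neighbour, with Hnmt (0.835), Proca1 (0.855) and Klf15 (0.858) the nearest.

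Other regulators of fat cell formation were followed as lists. Of 22 further activators, the MG-N glands had 7 called higher than MG-WT and 4 lower, the MG-NP glands 7 and 5. Over all genes 19.1% were higher and 17.9% lower in MG-N, while MG-NP had 16.4% and 16.2%, so that the count of lower activators in MG-N is no more than the background. In MG-N the higher ones included Rxrg, a partner of PPARγ, with a log2 difference of 4.80 ± 0.42 (SE; adjusted p = 4.61e-05, limma), and Klf15, with 4.21 ± 0.40 (adjusted p = 7.46e-05, limma). The lower ones included Klf5 (-4.38 ± 0.32) and Egr2 (-4.02 ± 0.44), both early factors of the cascade. In tumors 10 of the 22 were called lower and 2 higher in T-N, and 8 and 3 in T-NP, where 22.3% and 24.0% of all genes were lower and 12.8% and 14.7% higher. Ebf1, a relative of Ebf2, was at 3695.4 to 6176.3 normalized counts in MG-N and 83.2 to 417.1 in T-N, a log2 difference of -4.96 ± 0.45 (adjusted p = 0.00011, limma). Rxra, the more widely expressed PPARγ partner, was at 3643.8 to 4705.2 in MG-N and 2212.6 to 3575.9 in T-N. The median of the list was 0.11 in MG-N and 0.15 in MG-NP, and -0.91 and -0.74 in the tumors.

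Genes that hold back fat cell formation included some that rose and some that fell. Of 15, the MG-N glands had 3 called higher and 5 lower than MG-WT, the MG-NP glands 2 and 6, and the higher ones were thus near the shares over all genes, 19.1% and 16.4%, beside 17.9% and 16.2% lower. Gata3, which is also a luminal epithelial factor, was at 6955.8 to 9289.6 in MG-WT and 440.8 to 880.0 in MG-N (log2 difference -3.73 ± 0.24 SE; adjusted p = 1.03e-05, limma). Wnt10b rose by 2.93 ± 0.37 (adjusted p = 0.000292, limma), but from 3.62 to 9.27 normalized counts to only 34.0 to 61.1. In the tumors 7 of the 15 were lower and 1 higher in T-N, and 8 and 2 in T-NP, beside 22.3% and 24.0% lower over all genes and 12.8% and 14.7% higher. Irf4, also a lymphocyte factor, was lower at -5.94 ± 0.93 and -6.39 ± 0.79 (adjusted p = 0.0011 and 0.000264, limma). The list's median was -0.50 and -0.84 in the glands and -1.38 and -1.39 in the tumors.

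Other genes of fatty acid uptake were measured with 24 list members, of which 19 passed the filter in MG-N against MG-WT. Higher there were 8 of the 19 and lower 2, and 7 of 19 higher and 1 lower in MG-NP, where 19.1% and 16.4% of all genes were higher and 17.9% and 16.2% lower. Acsl1, which activates fatty acids in fat cells, was at 1057.7 to 1221.0 in MG-WT, 42237.8 to 71262.4 in MG-N and 642.7 to 5511.8 in T-N. It rose by 5.51 ± 0.18 in MG-N (adjusted p = 5.13e-07, limma) and was at -4.72 ± 0.60 in T-N against MG-N (adjusted p = 0.00044, limma). Its relative Acsl4 went the other way in the tumors, from 1276.9 to 7313.6 in MG-N to 12238.0 to 58953.4 in T-N, with log2 differences of 3.75 ± 0.64 in T-N and 4.02 ± 0.19 in T-NP (adjusted p = 0.00166 and 6.08e-06, limma). Cav1, a caveolar protein of fat cells and endothelium, was at -5.03 ± 0.26 and -5.06 ± 0.27 (adjusted p = 2.10e-05 and 7.70e-06, limma). Fabp3, the carrier of muscle and heart, was at 557.8 to 8021.6 in MG-NP and 5.63 to 150.3 in MG-N, beside the muscle transcripts given above. In all, 7 of 19 were lower and 3 higher in T-N, and 7 of 17 lower and 4 higher in T-NP, where the shares over all genes were 22.3% and 24.0% lower and 12.8% and 14.7% higher. The list's median was 0.74 and 0.51 in the glands and -0.83 and 0.36 in the tumors.

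Regulators of lipoprotein lipase made up the next list. Angptl8, an inhibitor made by fed fat cells, was at 0 to 2.07 normalized counts in MG-WT, 108.0 to 370.6 in MG-N, 28.2 to 862.1 in MG-NP, 0 to 20.2 in T-N and 0 to 1.22 in T-NP. Angptl4, the inhibitor of fasting and hypoxia, was at 3787.4 to 5191.4 in MG-WT and 6524.1 to 8499.1 in MG-N, but at 206.5 to 488.5 in T-N and 152.3 to 461.9 in T-NP, with log2 differences from the glands of -4.62 ± 0.30 and -3.90 ± 0.51 (adjusted p = 3.91e-05 and 0.000342, limma). Vldlr, a receptor for lipase products, kept 3528.9 to 9322.6 in T-N beside 3304.9 to 4296.1 in MG-N. Of the list, 6 of 13 were higher and 2 lower in MG-N, 5 of 12 and 2 in MG-NP, 2 of 12 higher and 4 lower in T-N, and 1 of 12 and 4 in T-NP. Set beside the shares over all genes given for the other lists, the higher counts in the glands stood above the background, and the lower ones there and the higher ones in the tumors were near or below it. The lower counts in the tumors stand beside 22.3% and 24.0% of all genes. The list's median was 0.80 and 0.57 in the glands. In the tumors it was above 0, at 0.44 and 0.51, beside -0.05 and -0.07 over all genes, so the list as a whole did not fall there.

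Triglyceride synthesis genes other than the Dgat enzymes changed in part. Of 17 tested, 8 were called higher, 0 lower and 9 neither way in MG-N, with 8, 1 and 8 in MG-NP, beside 19.1% and 16.4% higher over all genes. Gpat3, Gpd1 and Agpat2, which supply the steps before the Dgat reaction, rose in MG-N by 5.07 ± 0.34, 4.72 ± 0.19 and 4.43 ± 0.15 on the log2 scale (adjusted p = 1.35e-05, 1.28e-06 and 5.82e-07, limma). In the tumors 8 were lower and 1 higher in T-N, and 9 and 1 in T-NP, with 8 and 7 not called, where 22.3% and 24.0% of all genes were lower. Gpat3 fell most, from 2694.0 to 5955.8 normalized counts in MG-N to 21.0 to 70.7 in T-N (log2 difference -6.42 ± 0.41 SE; adjusted p = 3.44e-05, limma) and fell by 5.95 ± 0.56 in T-NP (adjusted p = 7.04e-05, limma). The median of the list was 0.91 and 0.79 in the glands and -0.92 and -1.30 in the tumors, all nearer to 0 than the difference of either Dgat enzyme. None of the 5 lists had a called member in MG-NP against MG-N, in T-NP against T-N or in the interaction, by limma.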

How the data were processed

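RNA was sequenced from 19 mouse tissue samples as 75-bp pairs. The labels name a stranded total RNA kit and the study's methods an mRNA kit. The authors aligned reads to GRCm38 with TopHat2 (2.1.1) and Bowtie2 and deposited 1 table of DESeq2-normalized counts (signal: reads divided by a size factor) for 46078 genes. How reads were assigned to genes is not given in the sources used here. Whole reads were recovered by dividing by each library's step (tolerance 0.05 reads, 100% whole). Symbols and exons came from GENCODE vM21 (98.2% of identifiers).

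Values were tested as log2(value + 1) with limma 3.58.1, per pair of groups, over genes with at least 10 normalized counts in as many samples as the smaller group has, because the values are not counts. edgeR 4.0.16 and DESeq2 1.42.0 ran on the recovered reads as alternatives. Single genes had a two-sided exact permutation test. The code was run on simulated counts with the same dispersion for every gene. These do not have the spread of the real groups, so the run does not check the calls given here. The study calls its samples biological replicates, while T-NP replicates 1 and 2 share a number. Replicates differed beyond sampling noise (chi-square per gene of 39.24 or more) and were all kept. The lowest value, 39.24, was that of T-NP replicates 1 and 2, the most alike pair, against 53.92 or more for the others. Whether these tumors came from the same mouse is not given. Members and lists were chosen with earlier results of these data known. Named were the 10 members, up to 4 genes per list and comparison past the threshold with the largest difference and no overlap, 3 neighbours per member, Trp53, Erbb2, and marker genes at their extremes.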

Additional observations from a re-analysis of the deposited data

Results flagged for a closer look

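Each gene's log2 values were checked for a sample far from the rest in every group of 4, in 40 groups in all, and chance would flag about 1 in 20 groups, or 2.0 here. The 2 that stood apart were each the highest of their group. Ebf2 had 1700.6 normalized counts in MG-NP replicate 4, against 602.2 to 718.0 in the other 3, with a gap of 0.831 of the range. That gland also held brown fat and skeletal muscle transcripts, whose part was not tested. Dgat1 had 5876.5 normalized counts in MG-N replicate 4, against 4322.9 to 4506.8 in the other 3, with a gap of 0.864 of the range.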

How the results depend on the processing

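In the glands against MG-WT and the tumors against the glands, all 10 members kept their direction under every alternative run, and other scaling, pseudocounts, filters, tools, a single fit of all groups and the omission of any 1 sample left 8 to 10 called. With the skeletal muscle score as a covariate MG-NP against MG-WT had 4 called. That score did not overlap between MG-NP and either MG-WT or T-NP, so fits with it cannot separate score from group there. T-N against MG-WT had 1 called without the filter on low counts, T-NP against MG-WT 7 with no fold threshold (6 of them lower), and the interaction 1 by DESeq2; the cause was not tested. Over single genes and comparisons, 844 results of other alternatives stayed on their side of the threshold, 15 lost and 5 gained a call, and 8 changed sign; with 1 sample left out these were 601, 2, 4 and 9. No gene that changed sign was called in the comparison concerned. For T-NP against T-N, Cd36 turned to -0.78 by edgeR, -0.80 by DESeq2 and -0.24 with T-NP replicates 1 and 2 averaged, and Dgat2 to -0.16 and -0.17 by edgeR and DESeq2. With 1 sample left out Cd36 ran from -1.13 to 1.17, Lpl from -0.98 to 0.40 and Dgat2 from -0.45 to 0.76. Against MG-WT, Cd36 in T-N was 1.41 by edgeR and 1.36 by DESeq2 and ran from -1.12 to 1.18 with 1 sample left out; in T-NP it was -0.36 with the pair averaged and ran from -0.43 to 0.71. Ebf2 in T-N ran from -0.084 to 0.83. Samples with the same replicate number did not deviate together (correlations of -0.28 to 0.319), so the numbers were not taken as pairs. A fit with the replicate number as a block called 10, 10, 10, 10, 0 and 0 members in the comparisons of glands and tumors, 2 in T-N and 3 in T-NP against MG-WT (Gpihbp1 dropping to 0.89), and 0 in the interaction. Of the 30 neighbours, 28 were found again among genes with a mean of at least 200 normalized counts. Depth did not keep any member from being tested, with at least 25.8 normalized counts in every library. Pparg had the fewest recovered reads, 22 to 49 in T-NP and as few as 36 in T-N, so sampling noise weighs more on its values there.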
